A study of Mus musculus with 6 samples.

Results

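Interferon-stimulated genes are the genes that cells switch on when an interferon binds its receptor. Here 37 of them, taken by symbol from a list given for this report out of 49212 genes in the count tables, were followed in mouse liver. All 37 were found, and all 37 passed the filter on low counts, as did 15126 genes in all. By role they were 4 sensors of foreign nucleic acid, 3 transcription factors of the type I response (Stat2, Irf9 and Irf7), 2 transcription factors known chiefly as targets of interferon gamma (Irf1 and Irf8), 4 IFIT genes, 6 OAS genes, the modifier gene Isg15 with its protease gene Usp18, 8 other antiviral genes, 4 guanylate-binding protein (GBP) genes and 4 immunity-related GTPase (IRG) genes. Apart from Irf1 and Irf8, 27 of them are called type I genes below and the other 8 GBP and IRG genes.

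Liver RNA came from C57BL/6J mice aged 15 weeks, with 3 libraries from the Placebo group and 3 from the group the labels call DHT pellet treated PCOS mice. DHT is dihydrotestosterone, an androgen, and PCOS is polycystic ovary syndrome, which the pellet serves to model in mice. Both groups share strain, age and tissue, and the labels name no other allele or agent. The labels give neither sex, litter nor batch and do not say that each library is a separate animal, and the p-values therefore reflect library-to-library spread alone, which may be technical.

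Total counts lay between 41336844 and 60209462 per library, and mitochondrial genes took 3.23 to 8.47% of them, with placebo 3 lowest. Hepatocyte markers were abundant in all 6 libraries, as the label liver implies, with 7 genes summed to 133221, 122888 and 99299.5 CPM in placebo 1, 2 and 3 and 90497, 86196 and 75826 CPM in DHT 1, 2 and 3. Those sums did not overlap, DHT being lower. Ddx3y, a Y-linked gene, was at 0.0591 to 0.103 CPM in placebo and 68.5 to 73.2 CPM in DHT. Xist, the RNA of the inactive X chromosome, was at 43.4, 25.2 and 255 CPM in placebo and 0.195, 0.107 and 0.515 CPM in DHT. The placebo libraries thus had the pattern of female tissue and the DHT libraries that of male tissue, and in every comparison below this difference and the pellet cannot be told apart. CPM is the usual unit of counts relative to the library total, here scaled between libraries by the trimmed mean of M-values (TMM). In bulk liver, fewer cells of a type and less RNA per cell cannot be told apart.

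Type I interferons (alpha and beta) act through the receptor chains IFNAR1 and IFNAR2, and the kinases JAK1 and TYK2 then phosphorylate STAT2. With IRF9 it acts in a complex that binds the interferon-stimulated response element (ISRE) in target promoters. Type II interferon (gamma), made mainly by T and NK cells, acts through IFNGR1 and IFNGR2 and leads to binding at the gamma-activated site (GAS). GBP and IRG proteins are large GTPases that attack the vacuoles of intracellular parasites and bacteria and are known for strong induction by interferon gamma. In liver, hepatocytes, Kupffer cells and endothelial cells all respond to interferons.

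Promoters of 5 of the 8 GBP and IRG genes and of several type I genes hold these elements. The stretches below were chosen among promoters with a match, to show the elements beside genes described in detail, and not every such gene has one. The ISRE was searched as GAAA, then any 2 bases, then GAAA, on both strands and the GAS as TTCNNNGAA, which reads the same on both strands. Each stretch is from RefSeq on build GRCm38.p6, written 5′ to 3′ in the direction of the gene, with the bases of a match in capitals, adjacent matches running together.
Gbp3, chr3:142559979-142560034, plus strand: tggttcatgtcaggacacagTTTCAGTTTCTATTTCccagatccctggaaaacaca
Gbp2, chr3:142620584-142620633, plus strand: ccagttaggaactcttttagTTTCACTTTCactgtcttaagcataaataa
Gbp7, chr3:142530210-142530312, plus strand: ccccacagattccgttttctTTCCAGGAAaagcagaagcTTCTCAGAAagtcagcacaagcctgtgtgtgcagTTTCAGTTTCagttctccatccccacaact
Igtp, chr11:58199491-58199551, plus strand: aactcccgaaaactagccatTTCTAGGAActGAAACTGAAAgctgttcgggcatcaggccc
Irgm1, chr11:48871421-48871470, minus strand: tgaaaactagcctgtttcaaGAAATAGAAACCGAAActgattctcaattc
Isg15, chr4:156200855-156200916, minus strand: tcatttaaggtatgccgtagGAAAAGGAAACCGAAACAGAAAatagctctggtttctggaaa
Ifit3, chr19:34583353-34583436, plus strand: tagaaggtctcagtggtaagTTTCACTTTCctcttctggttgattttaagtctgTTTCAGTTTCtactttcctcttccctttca
Ifit3b, chr19:34607749-34607832, plus strand: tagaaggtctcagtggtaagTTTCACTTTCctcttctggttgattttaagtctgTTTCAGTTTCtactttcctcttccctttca
Bst2, chr8:71537567-71537628, minus strand: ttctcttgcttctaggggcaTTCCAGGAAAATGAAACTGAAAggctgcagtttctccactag
Irf8, chr8:120736167-120736233, plus strand: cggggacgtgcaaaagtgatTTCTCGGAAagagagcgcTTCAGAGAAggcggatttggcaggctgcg

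Of the 37 genes, 30 had a promoter in the RefSeq table, in windows of 300 bases that run from 250 before an annotated start to 50 after it. The other 7 were Dhx58, Zbp1, Oas2, Usp18, Parp14, Gbp6 and Iigp1. An ISRE match stood in 18 of the 30, against 3.99% of the 27025 genes in the table, and a GAS match in 8 of the 30, against 9.55%. By class, an ISRE match stood in 13 of 22 type I genes and in 5 of 6 GBP and IRG genes, while Irf1 and Irf8 held a GAS match and no ISRE match. Isg15 held 3 overlapping ISRE matches between 78 and 57 bases before the start, and in Bst2 a GAS match overlapped the first of 2 ISRE matches. Of genes with a window, 8 held neither motif: Irf9, Irf7, Oasl1, Oasl2, Cmpk2, Ifi44, Xaf1 and Ifi47. The stretches of Ifit3 and Ifit3b had 0 mismatches over 84 bases. A match is a description of letters, not a bound site, and the genes were listed as interferon-stimulated to begin with.

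**Figure D1:**
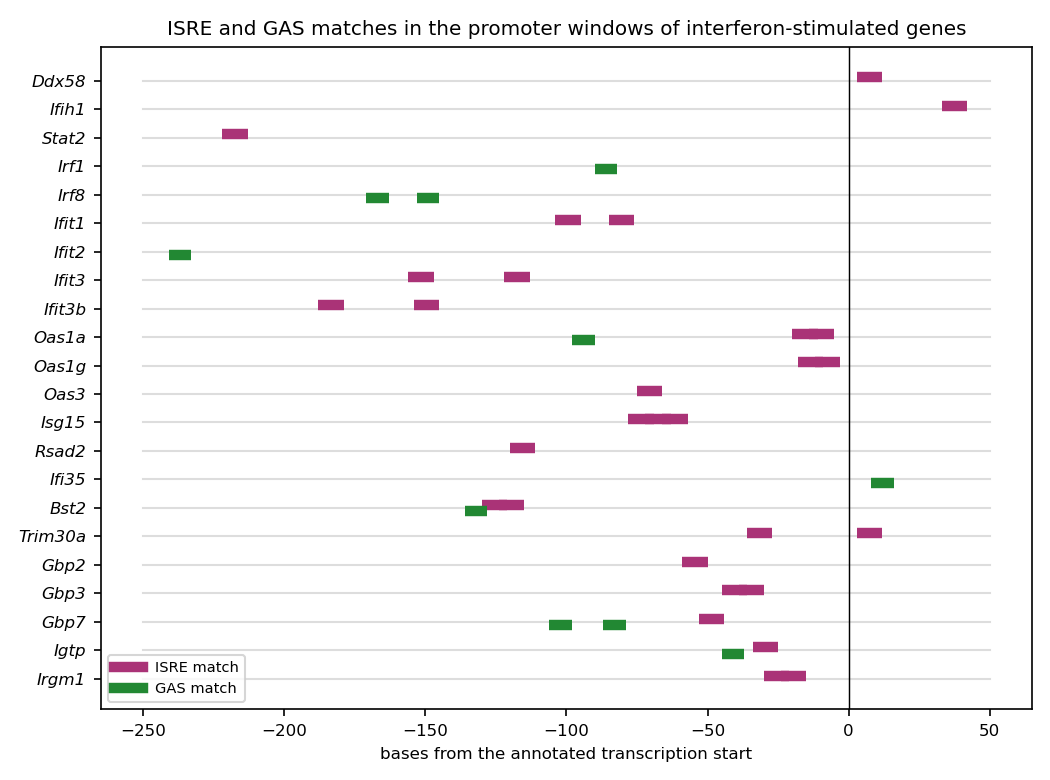
Positions of ISRE matches (purple) and GAS matches (green) in the promoter windows of the 22 genes that hold at least 1, in bases from the annotated start (x axis; windows of a gene with several starts are drawn on 1 line). Most matches lie within about 200 bases before the start, and Gbp2, Gbp3, Gbp7, Igtp and Irgm1 all hold an ISRE match close to it.

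Across the 37 genes, levels were lower in the DHT libraries for most genes, by modest amounts: 31 had a fitted log2 fold change (DHT minus placebo) below 0, with a median of −0.71. Over all 15126 genes tested, the median was −0.0245 and 51.9% lay below 0. The test was edgeR's quasi-likelihood test with Benjamini-Hochberg adjustment over all genes, and a gene was called at an adjusted p under 0.05. By that test 2 of the 37 were called, Zbp1 and Gbp3, both lower, where 1.65% of all genes were called in either direction and 0.701% lower. None was called higher (0 of 37, against 0.952% of all genes), with 1 at an unadjusted p under 0.05, where 7.4% of all genes were. At an unadjusted p under 0.05, 15 of the 37 (40.5%) were lower, against 8.52% of all genes. In 17 of the 37 (45.9%) all 3 DHT libraries lay below all 3 placebo libraries, against 10.9% of all genes, and in 1 (Stat2) they lay above, against 12.7%. The genes were chosen with earlier results of these data known. These shares therefore describe the list and are not an independent test of it. Outside the 37, 60% of 35 other type I genes and 58.3% of 12 other GBP and IRG genes lay below 0 (medians −0.12 and −0.0821). Of 19 other targets of interferon gamma, 73.7% did (median −0.58).

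Libraries are numbered 1 to 3 within each group. Deviations from the group mean correlated most between the libraries numbered 3 (0.602). Placebo 1 correlated more with DHT 2 (0.287) than with DHT 1 (0.246). Placebo 2 correlated more with DHT 1 (0.445) than with DHT 2 (0.145). The pairing by number is therefore uncertain, and every value given with the block depends on it. When the library number entered the model as a block, 11 of the 37 were called lower and 0 higher. That fit called 10.7% of all genes, 5.28% lower and 5.44% higher. A smaller adjusted p with the block was not always a tighter estimate. For Bst2 the SE was 0.231 without the block and 0.279 with it, while the edgeR adjusted p went from 0.138 to 0.0408. For Stat2 the SE was 0.216 and 0.266, and the edgeR adjusted p 0.222 and 0.124. The adjusted p values with the block are therefore weak support for single genes. The 11 were Zbp1, Gbp3, Gbp2, Gbp7, Irf7, Isg15, Ifit1, Ifit3, Ifi44, Bst2 and Ifih1. DESeq2 called 10 of the 37 lower, all of these but Ifih1, and 0 higher, where it called 3.73% of all genes lower and 3.29% higher. Limma voom called 5 lower (Zbp1, Irf7, Gbp2, Gbp3 and Gbp7) and 0 higher, where it called 2.24% and 2.43% of all genes. With no low-count filter 5 were called lower and 0 higher, against 0.872% and 1.09% of all genes. The count without the block was 0 without placebo 1, placebo 2, DHT 1 or DHT 3, 1 without DHT 2 and 8 without placebo 3, a fit that called 2.81% of all genes lower and 2.73% higher. Placebo 3 differed more from placebo 1 and 2 (chi-square per degree of freedom of the counts over 15074 genes 684 and 662) than those did from each other (231). It was the lowest placebo library in 16 of the 37 genes, as often as placebo 2, and the highest in 11, against 20 for placebo 1. The median exon length was 5005.5 bases in the 16 genes lowest in placebo 3, 3851.5 in the 10 in between and 2473 in the 11 highest there. Single genes went against this order: Ifih1 (8165 bases) was highest there and Igtp (2022 bases) lowest. Exon length was not set against placebo 3 over all genes.

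**Figure D2:**
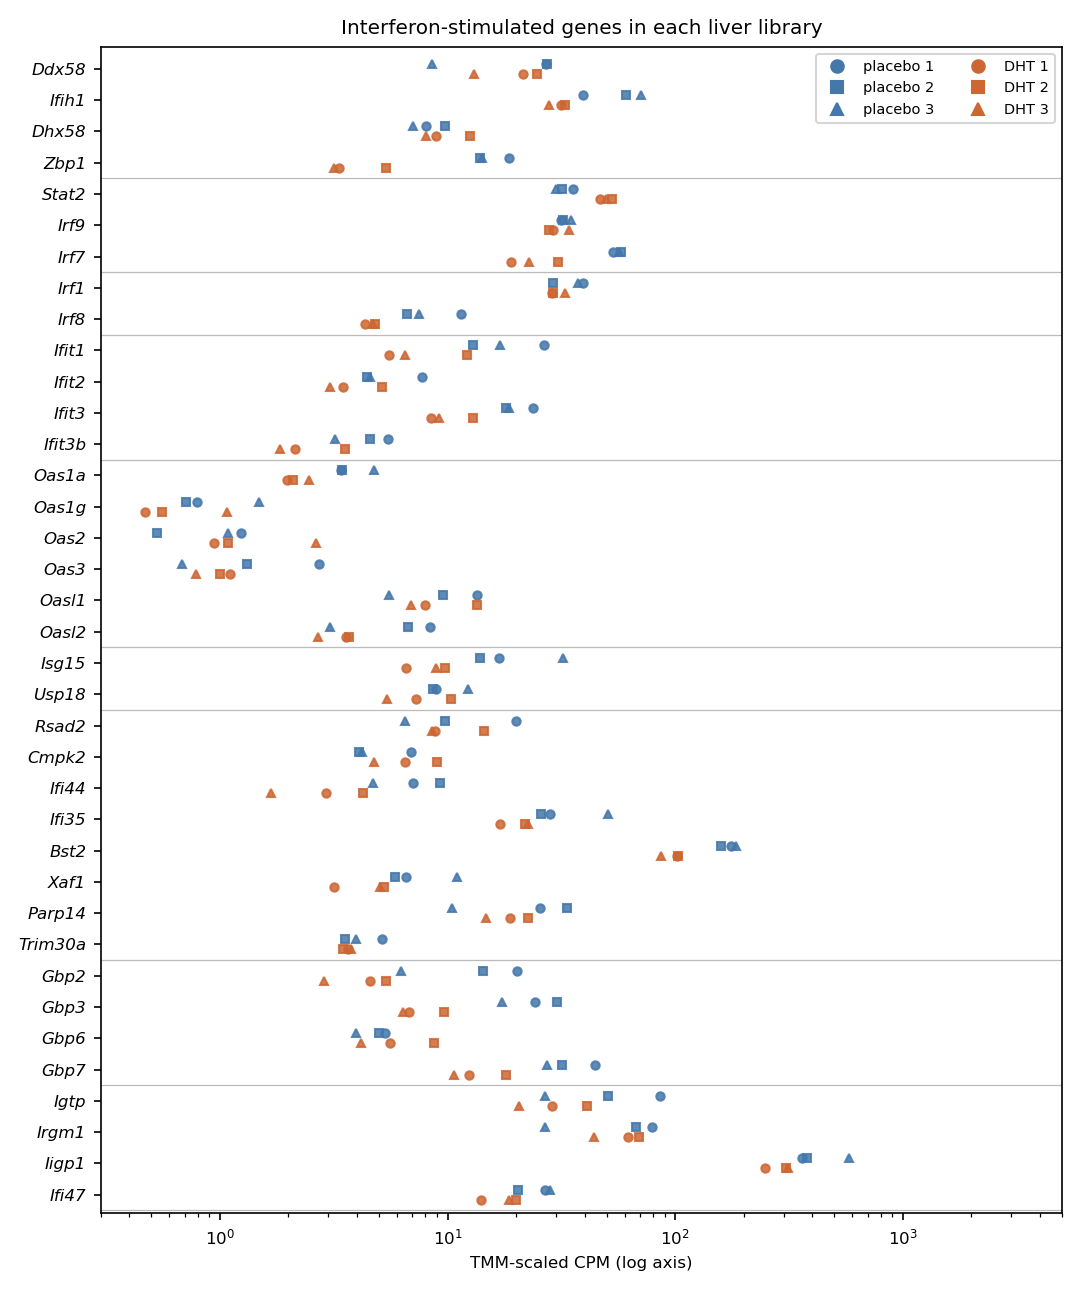
Level of each of the 37 genes (y axis, in blocks by role) in every library, as TMM-scaled CPM on a log axis; blue is placebo, orange is DHT, and circle, square and triangle are libraries 1, 2 and 3. All DHT points lie left of all placebo points in 17 genes, among them Zbp1, Irf7, Bst2, Gbp2, Gbp3 and Gbp7, and right of them in Stat2.

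Among the 4 sensors, Zbp1 fell and the 3 RNA helicases of the RIG-I family did not pass the test. Zbp1 (GRCm38 chromosome 2, 173206612 to 173218923) encodes a sensor of Z-form nucleic acid that can set off necroptosis. Its level was 18.6, 13.9 and 14.2 CPM in placebo 1, 2 and 3 and 3.34, 5.36 and 3.18 CPM in DHT 1, 2 and 3. Every DHT library lay well under every placebo library, a 3.92-fold difference. The log2 fold change was −1.97 ± 0.30 (SE, edgeR adjusted p = 0.0199). The call was lost without placebo 1, placebo 2, DHT 1 or DHT 3 (adjusted p up to 0.117), while the direction held in each of these fits.

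Ifih1, which encodes MDA5, a sensor of long viral RNA (chromosome 2, 62595798 to 62646255), had 39.4, 61.0 and 70.7 CPM in placebo against 31.5, 32.9 and 28.0 CPM in DHT. The groups did not overlap, but placebo 1 lay closer to DHT than to the other placebo libraries. The log2 fold change was −0.89 ± 0.27 (edgeR adjusted p = 0.177, and 0.033 with the block). Ddx58, which encodes RIG-I, had 27.1, 27.4 and 8.55 CPM in placebo and 21.4, 24.6 and 13.1 CPM in DHT, so that both libraries numbered 3 were low and the groups overlapped (−0.09 ± 0.46). Dhx58, which encodes the regulatory relative LGP2, ranged from 7.05 to 9.71 CPM in placebo and from 8.05 to 12.5 CPM in DHT (0.25 ± 0.28).

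None of the 3 transcription factor genes of the type I response was called by edgeR without the block. Irf7, which encodes the factor that amplifies type I interferon production (chromosome 7, 141262706 to 141266481), had 53.3, 57.6 and 56.4 CPM in placebo and 19.1, 30.7 and 22.9 CPM in DHT. The placebo libraries were tight and all DHT libraries lay far below them, a 2.30-fold difference. The log2 fold change was −1.20 ± 0.25 (edgeR adjusted p = 0.0659, and 0.000945 with the block), and without placebo 3 the adjusted p was 0.0215. Stat2, which encodes the STAT found only in the type I and type III pathways (chromosome 10, 128270576 to 128292849), had 35.5, 31.7 and 29.95 CPM in placebo and 46.9, 52.7 and 49.8 CPM in DHT. It is the member with all DHT libraries above placebo (0.62 ± 0.22, edgeR adjusted p = 0.222, and 0.124 with the block). Irf9, which encodes the DNA-binding partner of STAT2, lay between 31.6 and 34.8 CPM in placebo and between 27.9 and 34.1 CPM in DHT (−0.11 ± 0.22).

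Of the 2 factors tied to interferon gamma, Irf8, needed for dendritic cell and macrophage development (chromosome 8, 120736358 to 120756694), had 11.4, 6.62 and 7.52 CPM in placebo and 4.33, 4.81 and 4.72 CPM in DHT. The groups did not overlap (−0.88 ± 0.29, edgeR adjusted p = 0.197, and 0.0627 with the block). Irf1, an early target of interferon gamma, overlapped between the groups, at 28.9 to 39.5 CPM in placebo and 28.6 to 32.9 CPM in DHT (−0.22 ± 0.23, adjusted p = 0.67).

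IFIT proteins bind viral RNA and block its translation. All 4 IFIT genes had log2 fold changes below 0, from −1.22 to −0.51, and edgeR called none without the block. DESeq2 called Ifit1 (adjusted p = 0.0481) and Ifit3 (0.0172), and edgeR without placebo 3 called Ifit3 (0.0431). Ifit1 (chromosome 19, 34640871 to 34650009) had 26.6, 13.0 and 17.0 CPM in placebo and 5.52, 12.2 and 6.49 CPM in DHT, where DHT 2 nearly reached placebo 2 (−1.22 ± 0.40, edgeR adjusted p = 0.198, and 0.0131 with the block). Ifit3 (chromosome 19, 34583531 to 34588731) had 23.6, 18.1 and 18.5 CPM in placebo and 8.44, 12.9 and 9.15 CPM in DHT, with no overlap (−0.98 ± 0.27, edgeR adjusted p = 0.135, and 0.0126 with the block). Its neighbour copy Ifit3b had −0.81 ± 0.36 and Ifit2 −0.51 ± 0.34, both with overlapping groups. Of the stretches of 75 bases in transcripts of Ifit3, 41.1% also occur in Ifit3b, so how reads were shared between this pair is uncertain.

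OAS proteins make oligoadenylates that activate RNase L, and the OASL relatives act on RIG-I and on translation. None of the 6 OAS genes was called by edgeR with or without the block, by DESeq2 or by limma voom. Group means ran from below 1 CPM in Oas1g to 9.51 CPM in Oasl1. Oas1a (chromosome 5, 120896256 to 120907521) was the one without overlap, at 3.39, 3.45 and 4.75 CPM in placebo and 1.96, 2.09 and 2.46 CPM in DHT (−0.83 ± 0.29, edgeR adjusted p = 0.226). It shares 47.6% of its stretches of 75 bases with Oas1g, which had −0.51 ± 0.48. Oas2 had the highest log2 fold change of the 37, 0.70 ± 0.52, with 1.24, 0.532 and 1.09 CPM in placebo and 0.941, 1.09 and 2.64 CPM in DHT. That value stood on DHT 3, since the other 2 DHT libraries lay within the placebo range. Oas3 had −0.71 ± 0.51, Oasl1 −0.01 ± 0.39 and Oasl2 −0.86 ± 0.39, which was called without placebo 3 (adjusted p = 0.0317).

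Isg15 encodes a ubiquitin-like modifier that is joined to newly made proteins, and Usp18 encodes the protease that removes it and dampens the type I receptor. Isg15 (chromosome 4, 156199424 to 156200818) had 16.8, 13.8 and 32.2 CPM in placebo and 6.59, 9.78 and 8.86 CPM in DHT. The groups did not overlap, and placebo 3 stood well above the other placebo libraries. The log2 fold change was −1.31 ± 0.36 (edgeR adjusted p = 0.141, and 0.00208 with the block). Usp18 had 8.88, 8.65 and 12.3 CPM in placebo and 7.27, 10.4 and 5.41 CPM in DHT, which overlap (−0.37 ± 0.31, adjusted p = 0.592). Uba7, which encodes the enzyme that activates ISG15 for conjugation, was not on the list of 37 and had 11.9, 19.5 and 11.2 CPM in placebo against 5.71, 6.33 and 5.88 CPM in DHT. Its log2 fold change was −1.25 ± 0.29 (edgeR adjusted p = 0.0867, and 0.00258 with the block).

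Of the 8 other antiviral genes, Bst2 was the most abundant and 7 had log2 fold changes below 0. Bst2 encodes tetherin, which holds budding viruses at the cell surface (chromosome 8, 71534255 to 71537456). It had 176, 159 and 186 CPM in placebo and 102, 103 and 86.5 CPM in DHT, 2 tight groups 1.79-fold apart (−0.84 ± 0.23, edgeR adjusted p = 0.138, and 0.0408 with the block). Ifi44, a gene of unsettled antiviral function (chromosome 3, 151730922 to 151749960), had 7.07, 9.30 and 4.71 CPM in placebo and 2.92, 4.24 and 1.68 CPM in DHT (−1.25 ± 0.41, edgeR adjusted p = 0.201, and 0.00337 with the block). DHT 2 lay just under placebo 3 there. Ifi35 (−0.77 ± 0.32) and Xaf1, a pro-apoptotic gene (−0.80 ± 0.34), also had no overlap and were not called in either fit. Exons of Ifi35 overlap those of Gm11626 on the opposite strand over 16.8% of their length.

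Rsad2, which encodes viperin, and its neighbour Cmpk2, which encodes a nucleotide kinase, differed by less than the spread between libraries. Rsad2 ranged from 6.52 to 19.9 CPM in placebo and from 8.57 to 14.4 CPM in DHT (−0.19 ± 0.43). Cmpk2 had 6.93, 4.08 and 4.21 CPM in placebo and 6.51, 9.03 and 4.74 CPM in DHT (0.41 ± 0.35, adjusted p = 0.585). Parp14, an ADP-ribosyltransferase gene, had −0.30 ± 0.41, and Trim30a, a regulator of Toll-like receptor signalling, had −0.21 ± 0.27.

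Among the 4 GBP genes, Gbp3 fell, Gbp2 and Gbp7 had values of like size and Gbp6 did not follow them. Gbp3 (chromosome 3, 142560026 to 142573209) had 24.3, 30.1 and 17.3 CPM in placebo and 6.78, 9.65 and 6.40 CPM in DHT. The lowest placebo library lay well above the highest DHT library, and the difference was 3.14-fold. The log2 fold change was −1.65 ± 0.30 (edgeR adjusted p = 0.0402). The call was kept only in the fit without placebo 3 among those that left out 1 library (adjusted p up to 0.198), and it was lost with scaling by library size alone (adjusted p = 0.0596).

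Gbp2 (chromosome 3, 142620602 to 142638008) had 20.1, 14.3 and 6.25 CPM in placebo and 4.56, 5.34 and 2.86 CPM in DHT. Placebo 3 came close to the DHT libraries, and the groups did not overlap. The log2 fold change was −1.67 ± 0.45 (edgeR adjusted p = 0.135, 0.000122 with the block and 0.00581 without placebo 3). Gbp7 (chromosome 3, 142530342 to 142550149) had 44.5, 31.7 and 27.3 CPM in placebo and 12.5, 18.1 and 10.7 CPM in DHT, again with no overlap. Its log2 fold change was −1.33 ± 0.31 (edgeR adjusted p = 0.0867, 0.000489 with the block and 0.016 without placebo 3).

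Gbp2, Gbp3 and Gbp7 lie together on chromosome 3, whereas Gbp6 lies in the second cluster, on chromosome 5 (105270702 to 105293698). Gbp6 had 5.30, 5.02 and 3.97 CPM in placebo and 5.60, 8.74 and 4.16 CPM in DHT, with overlapping groups (0.37 ± 0.33, edgeR adjusted p = 0.61). Its counts are the least certain of the 4: 67.3% of its stretches of 75 bases occur in other genes, among them Gbp10, and 29.0% of its exon length overlaps Gm43302 on the same strand. Of Gbp7, 11.3% of the exon length overlaps Gm43802 on the same strand.

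IRG proteins coat the vacuoles of intracellular parasites, and IRGM proteins hold the others in check. None of the 4 IRG genes was called by edgeR with or without the block, by DESeq2 or by limma voom. Iigp1, the highest of the 37 in CPM, had 360, 379 and 582 CPM in placebo and 248, 308 and 312 CPM in DHT, with no overlap (−0.60 ± 0.29, edgeR adjusted p = 0.348). Ifi47 had 26.9, 20.4 and 28.3 CPM in placebo and 14.0, 20.02 and 18.6 CPM in DHT, where DHT 2 lay just under placebo 2 (−0.52 ± 0.26). Igtp, which encodes IRGM3, had 85.5, 50.5 and 26.9 CPM in placebo and 28.8, 40.9 and 20.6 CPM in DHT (−0.85 ± 0.44), and 8.01% of its exon length overlaps Irgm2. Irgm1 had 78.9, 67.0 and 26.8 CPM in placebo and 62.0, 69.6 and 43.8 CPM in DHT (0.02 ± 0.40). In Igtp and Irgm1 the libraries numbered 3 were the lowest of both groups.

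**Figure D3:**
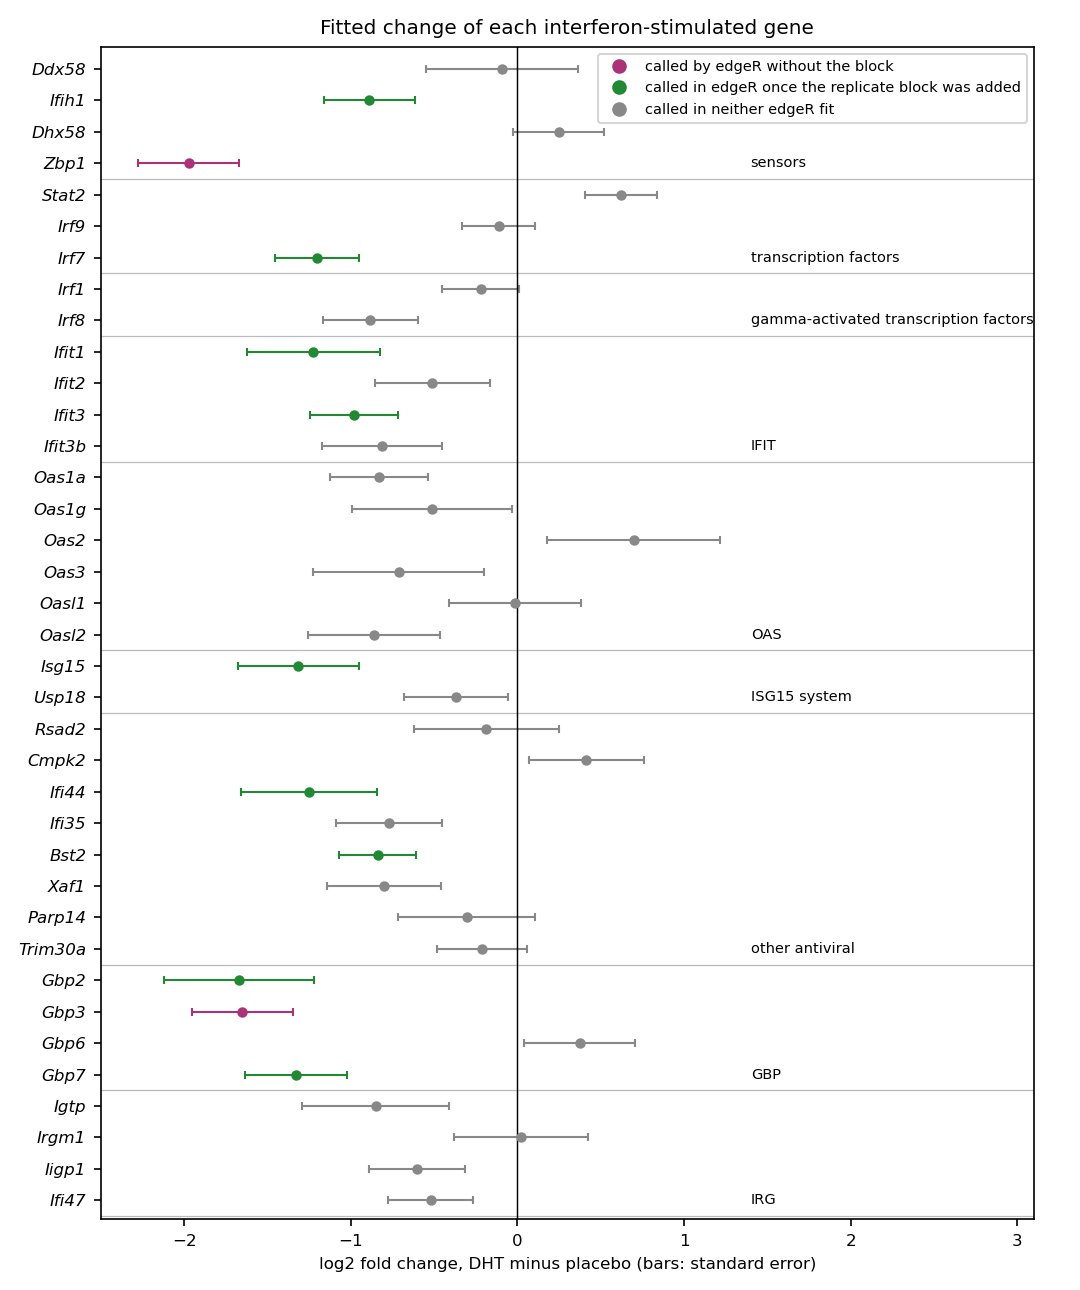
Fitted log2 fold change (DHT minus placebo, x axis) of each of the 37 genes with its standard error as bars, in blocks by role. Zbp1 and Gbp3 (purple) were called, 9 more (green) were called by edgeR once the replicate block was added, and every gene called in either fit lies left of 0.

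Set side by side, the type I genes and the GBP and IRG genes had nearly the same median and different quartiles. From lowest to highest, log2 fold changes ran from −1.97 to 0.70 in type I genes and from −1.67 to 0.37 in GBP and IRG genes. Which class spread more thus depends on the measure. The median log2 fold change was −0.71 over 27 type I genes (quartiles −0.88 and −0.15) and −0.73 over 8 GBP and IRG genes (quartiles −1.41 and −0.39), a difference of −0.0144. Within the second class the 4 GBP genes had a median of −1.49 and the 4 IRG genes −0.56. Of the type I genes 1 was called lower and 11 (40.7%) had groups that did not overlap with DHT lower. Of the GBP and IRG genes 1 was called lower and 5 (62.5%) had such groups. With the block, 8 of 27 and 3 of 8 were called lower. Over all genes, 0.701% were called lower without the block and 5.28% with it, and 10.9% had such groups. Genes are not replicates of a condition, so the difference between the classes was not tested.

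Each gene's log2 CPM was then set against its placebo mean and averaged over a class. For the type I genes this gave 0.20, −0.07 and −0.13 in placebo 1, 2 and 3 and −0.66, −0.27 and −0.64 in DHT 1, 2 and 3. The 4 GBP genes had 0.34, 0.15 and −0.49 in placebo and −1.09, −0.62 and −1.44 in DHT. For the 4 IRG genes the values were 0.31, −0.02 and −0.30 in placebo and −0.53, −0.16 and −0.59 in DHT, so that DHT 2 lay above placebo 3 in this role alone of the 3. In all 3 sets DHT 2 was the highest DHT library and placebo 1 the highest placebo library. Of the 37 genes, 28 had their highest DHT value in DHT 2 and 20 their highest placebo value in placebo 1.

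**Figure D4:**
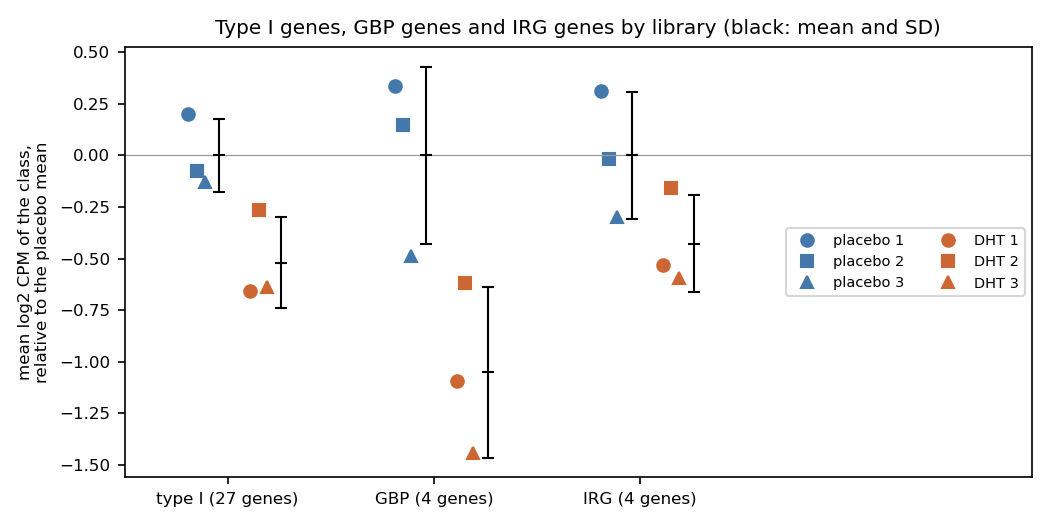
Mean log2 CPM of the type I, GBP and IRG genes in each library, relative to the placebo mean of each gene (y axis); the black bars are the mean and SD of the 3 libraries of a group. The DHT points lie below the placebo points for the type I and GBP genes, and DHT 2 overlaps placebo for the IRG genes.

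Levels between genes can be compared only per length. Per kilobase of exon, Bst2 was highest in both groups (192 CPM per kb in placebo and 108 in DHT), followed by Iigp1 (141 and 92.8). Isg15 came next in placebo (27.7 and 11.1), before Igtp (26.9 and 14.9) and Ifi35 (20.2 and 11.9), which both stood above it in DHT. The lowest were Oas2 (0.214 and 0.35), Oas3 (0.223 and 0.136) and Oas1g (0.425 and 0.299). The placebo ranges of Iigp1 and Bst2 in CPM per library were 360 to 582 and 159 to 186, and those of Oas2 and Oas3 overlapped at 0.532 to 1.24 and 0.678 to 2.73.

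Genes upstream of the response were given by the same counts, and 0 calls in lists this short is near the 1.65% of all genes called. Of 21 interferon genes, 18 had 0 counts in all 6 libraries, which allows up to 0.0179 CPM in placebo and 0.0197 CPM in DHT at 3 counts over the pooled libraries of a group (counting error only). The other 3 were Ifng, with 4 counts in placebo and 4 in DHT, Ifnk, with 1 and 3, and Ifna15, with 0 and 1. A difference in interferon transcripts was not detectable at this depth. Of 5 interferon receptor genes tested, 0 were called (edgeR, with 0 at an unadjusted p under 0.05 and 0 by DESeq2 or limma voom), and those with the smallest p were Ifnar2 (−0.39 ± 0.26) and Ifnar1 (0.28 ± 0.23). Of 9 genes of the signalling chain, 0 were called by any of these tools and 0 had an unadjusted p under 0.05. Socs1 (−0.72 ± 0.44), a brake on JAK kinases, and Jak2 (0.39 ± 0.25), the kinase of the gamma receptor, had the smallest p.

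Of 14 genes of nucleic acid sensing, 0 were called by edgeR, DESeq2 or limma voom. At an unadjusted p under 0.05, 2 were higher and 1 lower, where 7.4% and 8.52% of all genes were. Traf3, an adaptor of the interferon-inducing kinases, had 6.55, 6.50 and 2.18 CPM in placebo and 13.9, 13.9 and 8.57 CPM in DHT (1.25 ± 0.44, edgeR adjusted p = 0.228, and 0.000824 with the block). Trim25, the ubiquitin ligase of RIG-I, had 36.6, 55.5 and 38.2 CPM in placebo and 66.5, 83.0 and 58.9 CPM in DHT (0.68 ± 0.27, adjusted p = 0.273). Both had all DHT libraries above all placebo libraries. The 1 lower was Irf5, a transcription factor gene of Toll-like receptor signalling, with 10.5, 8.49 and 11.5 CPM in placebo and 5.70, 4.004 and 8.43 CPM in DHT (−0.75 ± 0.32, edgeR adjusted p = 0.311).

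Interferon-stimulated genes outside the 37 included calls in both directions. Of 35 other type I genes tested, 1 rose and 1 fell (2.86% each), where 0.952% of all genes were called higher and 0.701% lower. At an unadjusted p under 0.05, 4 were higher and 7 lower, where 7.4% and 8.52% of all genes were. With the block 2 were called higher and 5 lower, against 5.44% and 5.28% of all genes. The median log2 fold change of the 35 was −0.12. Tor3a, an AAA ATPase gene, rose from 6.61, 4.12 and 3.41 CPM in placebo to 15.3, 17.9 and 14.0 CPM in DHT (1.74 ± 0.31, edgeR adjusted p = 0.0383), and lost its call in 4 of 6 fits that left out 1 library (adjusted p up to 0.159). Ifitm1, a gene of a membrane protein that blocks virus entry, fell from 14.1, 7.80 and 16.1 CPM to 3.80, 4.24 and 4.004 CPM (−1.66 ± 0.32, edgeR adjusted p = 0.0492), and lost its call in 4 of those 6 fits (adjusted p up to 0.209). Its abundant relative Ifitm3 had 473, 497 and 499 CPM in placebo and 270, 278 and 279 CPM in DHT (−0.83 ± 0.23, adjusted p = 0.142).

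Of 19 other targets of interferon gamma, 2 (10.5%) fell and 0 rose by edgeR, where 0.701% of all genes were called lower and 0.952% higher. With the block 7 (36.8%) were called lower, against 5.28% of all genes. The median log2 fold change of the 19 was −0.58, with 0 higher at an unadjusted p under 0.05. Both genes called without the block encode subunits of the immunoproteasome, which makes peptides for MHC class I. Psmb10 had 80.4, 75.7 and 91.1 CPM in placebo and 18.6, 26.2 and 22.9 CPM in DHT (−1.87 ± 0.24, edgeR adjusted p = 0.0105), a call lost in 2 of 6 fits that left out 1 library (adjusted p up to 0.0794). Psmb8 had 65.2, 61.3 and 63.7 CPM in placebo and 21.2, 27.9 and 27.04 CPM in DHT (−1.32 ± 0.23, edgeR adjusted p = 0.0307), called in 1 of those 6 fits (adjusted p up to 0.207). In both the placebo libraries were tight and all DHT libraries lay far below them.

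Of 12 other GBP and IRG genes, 0 were called by edgeR (2 lower and 1 higher at an unadjusted p under 0.05, 1 lower and 1 higher by DESeq2, 0 and 1 by limma voom), with a median of −0.0821. Over all genes, 8.52% were lower and 7.4% higher at that unadjusted p. DESeq2 called 3.73% of all genes lower and 3.29% higher, and limma voom 2.24% and 2.43%. Of the 12, the 2 with the smallest p went opposite ways. F830016B08Rik, an IRG relative, had 2.92, 2.68 and 5.74 CPM in placebo and 9.64, 11.99 and 24.4 CPM in DHT (2.02 ± 0.46, edgeR adjusted p = 0.0826, 8.35e-07 with the block, 0.00118 by DESeq2 and 0.0351 by limma voom). Tgtp1, a T-cell-specific GTPase gene, had 8.15, 4.39 and 1.91 CPM in placebo and 1.347, 2.23 and 0.738 CPM in DHT, which overlap (−1.74 ± 0.59, edgeR adjusted p = 0.216, 0.00138 with the block and 0.035 by DESeq2). The groups of F830016B08Rik did not overlap.

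Markers of T and NK cells, the usual source of interferon gamma, were mostly lower in DHT, as were those of most cell types listed. The median log2 fold change was −1.14 for T and NK, −0.55 for erythroid and −0.53 for conventional dendritic markers. It was −0.43 for stellate, −0.38 for endothelial and −0.38 for B and plasma markers. Kupffer and macrophage (0.0732) and neutrophil (0.567) markers had medians above 0. The neutrophil median covers 3 of 5 markers. Those 5 summed to 1.08 to 3.42 CPM per library, with 1 or 2 of them at 0 counts in each. Of 5 erythroid markers, 1 lay above 0, at 1.93. The 12 T and NK markers summed to 10.9, 6.40 and 9.19 CPM in placebo and 3.198, 3.32 and 4.92 CPM in DHT, with no overlap, and each of the 12 had counts in all 6 libraries. DHT 3 had the highest T and NK sum of its group and the lowest GBP mean. Placebo 1 was the highest of its group in both, placebo 2 had the lowest T and NK sum and placebo 3 the lowest GBP mean. With 3 libraries in a group, these orders were not tested. Of 9 T and NK markers tested, 1 was called lower by edgeR, 4 by DESeq2 and 3 by limma voom. The shares of all genes called lower were 0.701%, 3.73% and 2.24%. The edgeR call was Gzma, a granule protease gene, which fell from 2.05, 1.005 and 2.08 CPM to 0.373, 0.286 and 0.157 CPM (−2.62 ± 0.49, edgeR adjusted p = 0.0414). That call was kept in 1 of 6 fits that left out 1 library (adjusted p up to 0.176). The T-cell receptor gene Cd3e had 0.688, 0.414 and 0.247 CPM in placebo and 0.243, 0.268 and 0.38 CPM in DHT, which overlap. The 5 cholangiocyte markers summed to 78.2, 82.1 and 90.2 CPM in placebo and 61.2, 101 and 50.1 CPM in DHT, which overlap. Their median log2 fold change was −0.89 (0 of 5 called by edgeR, 3 lower at an unadjusted p under 0.05, 2 lower by DESeq2), and that of the 7 hepatocyte markers was −0.49 (0 called, 2 lower at an unadjusted p under 0.05, 1 lower by DESeq2). Over all genes, 8.52% were lower at that unadjusted p and 3.73% were called lower by DESeq2. The part of any of these cell types in the levels of the 37 genes was not tested.

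The 8 Kupffer and macrophage markers summed to 190 to 283 CPM in placebo and 204 to 305 CPM in DHT, with 0 of 8 called by edgeR, DESeq2 or limma voom, 0 at an unadjusted p under 0.05 and a median log2 fold change of 0.0732. The sums also overlapped for 5 conventional dendritic cell markers (2.36 to 6.30 and 2.24 to 3.36 CPM), 6 B and plasma cell markers (2.86 to 7.59 and 3.603 to 5.37 CPM) and 6 endothelial markers (112 to 245 and 107 to 137 CPM), with 0 called in each by any of these tools and 0 at an unadjusted p under 0.05. The list for plasmacytoid dendritic cells holds Bst2 and Irf8 themselves. Its most specific gene, Siglech, was at 0.0985 to 0.602 CPM in placebo and 0.179 to 0.858 CPM in DHT.

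**Figure D5:**
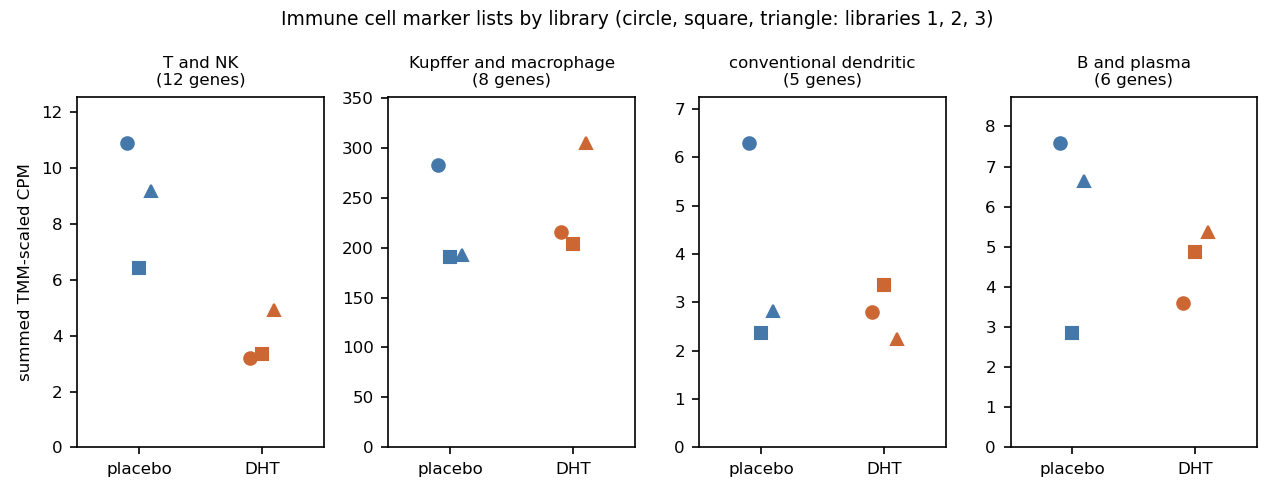
Summed TMM-scaled CPM (y axes from 0) of 4 lists of immune cell markers in each placebo (blue) and DHT (orange) library. The T and NK sums of DHT, 3.198 to 4.92, lie below those of placebo, 6.40 to 10.9, while the other 3 lists overlap.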

How the data were processed

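Gene counts of 6 mouse liver libraries were used as the authors deposited them: raw whole-number counts per gene, not normalised, with 0 rows lacking a gene name. Per the submitters' processing notes, tools included Trimmomatic 0.36, STAR 2.5.2b, featureCounts and Subread 1.5.2, with GRCm38 as the build. Whether counting used strand or multimapping reads is not given in the sources used here, so counts of near-identical or overlapping genes are uncertain. Per the labels, paired reads came from NEB Ultra libraries.

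DHT was compared with placebo in edgeR 4.0.16 under R 4.3.3: filterByExpr by group, TMM scaling (factors 0.9214 to 1.082), glmQLFit with robust empirical Bayes and glmQLFTest without covariates, adjusted by Benjamini-Hochberg over 15126 genes. The test was checked on simulated data. SE is the size of the log2 fold change divided by the square root of F. Group means relative to placebo use log2 CPM with a prior count of 2. Alternatives used DESeq2 1.42.0, limma 3.58.1 and other filters, scalings and sets of libraries. With 41336844 to 60209462 counts per library, 3 counts in a library are 0.0498 to 0.0726 CPM by library size alone. Replicates differed beyond sampling noise (smallest chi-square per degree of freedom 104, between DHT 1 and 2).

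Same-numbered libraries deviated from their group means with correlations of 0.246, 0.145 and 0.602. Each was above 0.1, and by that rule the numbers were taken to pair the libraries. Placebo 1 with DHT 2 (0.287) and placebo 2 with DHT 1 (0.445) passed 0.1 too. The rule therefore cannot tell the pairing by number from another. The pairing comes from the data, since the titles give the number and nothing on a shared litter or day.

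The genes, roles, lists, motifs and tests were chosen with earlier results of these data known. All 37 genes are named. Of other lists, called genes and the 2 with the smallest p are named. Uba7, Ifitm3, Irf5, Cd3e, Siglech and the Ifng, Ifnk and Ifna15 counts were added after their values were seen. Of 36 windows of the 30 genes with a promoter, 31 had their last 30 bases in a GENCODE M21 transcript of the gene as written and 0 in reverse complement. Stretches of 75 bases were compared between GENCODE M21 transcripts. Exon overlaps are from the deposited coordinates.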

Additional observations from a re-analysis of the deposited data

How the results depend on the processing

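Over 15 alternative fits, 0 of the 37 genes were called higher in each. The median of the type I genes ran from −0.79 to −0.53, that of the GBP and IRG genes from −0.89 to −0.54, and their difference from −0.18 to 0.0169, so its sign is not settled. Counting Irf1 and Irf8 with either class left the medians of the main test at −0.71 and −0.73, and this was not run in the other fits. The number of the 37 called lower was 1 with library size alone, 5 with no low-count filter, 10 by DESeq2, 5 by limma voom, 11 with the replicate block and 0 to 8 when 1 library was left out. Counts over all genes were 521 with no low-count filter, 1062 by DESeq2, 707 by limma voom, 1621 with the replicate block, 84 to 862 when 1 library was left out, against 250. Leaving out both libraries numbered 3, a choice made after seeing the data, gave 448, and 3 of the 37 lower. The cause of these differences was not tested.

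In 7 genes that were not called the sign changed in some fit, and it did not in the other 30. With library size alone, which moved the median of all genes by 0.19, the log2 fold change was 0.0867 for Ddx58, 0.0792 for Irf9 and 0.17 for Oasl1. With the replicate block it was 0.0328 for Ddx58 and 0.0197 for Oasl1. Irgm1 had −0.0011 with DESeq2 size factors and by DESeq2, −0.10 by limma voom and −0.15 without both libraries numbered 3, where Usp18 had 0.0109. Leaving out 1 library gave −0.47 to 0.14 for Ddx58, −0.35 to 0.31 for Oasl1, −0.48 to 0.37 for Rsad2, −0.66 to 0.0514 for Parp14 and −0.32 to 0.30 for Irgm1.

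Placebo 1 correlated more with DHT 2 (0.287) and placebo 2 more with DHT 1 (0.445) than with their own numbers, so the pairing rests most on the libraries numbered 3. Beside the calls named with the results, the block changed no other call among the 37. Depth limits the interferon genes themselves and the OAS genes near 1 CPM.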
